A study of Arabidopsis thaliana with 8 samples.

Results

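The genes described here are 10 markers of sugar starvation and of the kinase SnRK1 in root tips of Arabidopsis thaliana, listed by name and gene identifier. The rule that lists them uses no measured value, but the genes and the lists below were chosen with earlier results of these data known. They are KIN10 (AT3G01090), KIN11 (AT3G29160), BZIP11 (AT4G34590), BZIP1 (AT5G49450), ASN1 (AT3G47340), ASN2 (AT5G65010), DIN1 (AT4G35770), DIN10 (AT5G20250), TPS8 (AT1G70290) and TPS11 (AT2G18700). Of the 10 genes, 9 were among the 23632 genes of the deposited table of normalized values, and DIN1 was found only in the table of FPKM values, which holds 32833 genes. Of the 9, 8 passed the filter on low values (a mean of at least 1 over the 8 libraries) and were tested, whereas ASN1 did not pass.

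RNA was sequenced from pools of 1 mm root tips of the accession Col-0. The high temperature (HT) group, 4 libraries, was kept at 30 °C for 48 h and the control group, 4 libraries, at 22 °C for the same time. In both groups the seedlings were 5 days old when the treatment began, grew under 16 h of light and 8 h of darkness, and stood on medium that held 1% sucrose, so that no group was grown without sugar. Each pool was made of 50 seedlings taken from 5 plates with 10 seedlings each. The labels give 4 biological replicates per temperature and the methods give fewer, and all 8 libraries were used. The tips were not separated by cell type, and in such samples fewer cells of a type and less RNA per cell cannot be told apart.

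SnRK1 is a protein kinase complex that becomes active when plant cells run short of carbon or energy, and it switches metabolism from growth to the use of reserves. Its catalytic subunit is encoded by KIN10 and KIN11, and in leaf cells an active KIN10 induces ASN1, DIN1 and DIN10 and acts together with S1 group bZIP transcription factors such as bZIP1 and bZIP11. Trehalose 6-phosphate, a signal of sucrose supply, inhibits SnRK1 in growing tissue. TPS8 and TPS11 belong to the class II trehalose 6-phosphate synthase-like proteins, whose transcripts respond to sugars.

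The libraries held 38216649 to 41833843 reads in genes at HT and 38396646 to 40750937 in the control. The tissue label was checked with markers. The summed level of 6 root tip markers ranged from 9523 to 10124 normalized reads at HT and from 8714 to 9223 in the control, and 0 of the 6 were at 0. Its members went both ways. PLT1 (mean 2307, control 1234), PLT2, SMB and WOX5 had higher means at HT. SCR (mean 2933, control 3308) and SHR (mean 1680, control 2075) had lower ones. The summed level of 3 markers of the differentiation zone ranged from 0.877 to 122 at HT and from 445 to 1041 in the control. That of 3 shoot markers ranged from 10.3 to 18.4 at HT and from 153 to 181 in the control, with RBCS1A at 0 in every HT library. These sums differed between the temperatures without overlap, and their part in the results was not tested. HT replicate 3 stood apart in CASP1, a gene of the Casparian strip, with 94.3 normalized reads, against 0.877 to 7.51 in the other HT libraries and 2.21 to 10.7 in the control. At HT the sum of the differentiation zone markers was lower through COBL9 (mean 6.95, control 674) and EXPA7 (mean 2.62, control 76.4). The paper places both genes in root hair tip growth and found both lower at high temperature. CASP1 did not pass (log2 fold change -0.06, limma adjusted p = 0.96), so the sum does not speak for the whole zone.

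The groups differed in 3 of the 8 tested genes upwards and in 1 downwards. DIN10, TPS8 and TPS11 were higher at HT, and KIN11 was lower. Over all 21739 tested genes, 20.0% were higher and 17.5% were lower by the same rule, which asked for a Benjamini-Hochberg adjusted p under 0.05 in limma and a log2 fold change of 0.58 or more in either direction. With the adjusted p alone, 4 of the 8 were higher and 3 lower, against 35.9% and 35.2% of all tested genes. The libraries of the groups did not overlap for those same 7 genes, 4 higher and 3 lower, against 32.8% and 32.7% of all tested genes. The median log2 fold change was 0.11 over the 8 genes and 0.01 over all tested genes. The 8 tested genes did not move in 1 direction. KIN10 and KIN11 encode the kinase itself, and ASN2 is not among the genes named above as induced by it. A shared direction is thus not a given for these 8 genes. Without HT replicate 3 the log2 fold changes were 1.02 for DIN10, 1.07 for TPS8, 0.78 for TPS11 and -0.69 for KIN11, and all 4 kept their calls. When all libraries were scaled to equal totals, 69.7% of all calls were higher, against 53.4% with the deposited size factors, and 4 of the 8 genes were higher and 0 lower.

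The annotated gene starts give a view of the sequence in front of these genes. The 250 bases before the start were read from the genome build TAIR10.1 for each of the 10 genes, and 4 are printed here: DIN10, TPS8 and TPS11 because they were higher at HT, and ASN1 because it holds the most matches while its transcript was at or near 0. Capitals mark the matches to 3 motifs searched on both strands, CACGTG (a G-box, which is its own reverse complement), ACTCAT (reverse complement ATGAGT, a motif bound by S1 group bZIP proteins) and TATCCA (reverse complement TGGATA, known from sugar-repressed alpha-amylase genes of rice). The stretches are chr5:6833314-6833563 on the plus strand for DIN10, chr1:26474834-26475083 on the minus strand for TPS8, chr2:8108648-8108897 on the plus strand for TPS11 and chr3:17441432-17441681 on the minus strand for ASN1. Each is written 5′ to 3′ on the strand of its gene.
DIN10: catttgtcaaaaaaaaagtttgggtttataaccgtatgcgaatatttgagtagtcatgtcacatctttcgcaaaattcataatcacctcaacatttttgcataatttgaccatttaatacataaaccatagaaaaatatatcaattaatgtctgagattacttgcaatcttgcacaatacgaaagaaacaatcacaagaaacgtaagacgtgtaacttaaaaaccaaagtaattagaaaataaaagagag
TPS8: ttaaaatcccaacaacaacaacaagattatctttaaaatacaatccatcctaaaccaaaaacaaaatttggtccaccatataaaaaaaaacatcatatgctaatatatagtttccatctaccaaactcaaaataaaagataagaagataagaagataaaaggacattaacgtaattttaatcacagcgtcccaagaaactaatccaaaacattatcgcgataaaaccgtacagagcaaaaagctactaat
TPS11: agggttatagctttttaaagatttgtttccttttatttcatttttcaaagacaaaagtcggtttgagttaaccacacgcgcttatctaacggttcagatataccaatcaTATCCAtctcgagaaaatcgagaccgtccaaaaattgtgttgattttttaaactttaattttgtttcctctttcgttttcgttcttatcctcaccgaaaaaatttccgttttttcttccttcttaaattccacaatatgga
ASN1: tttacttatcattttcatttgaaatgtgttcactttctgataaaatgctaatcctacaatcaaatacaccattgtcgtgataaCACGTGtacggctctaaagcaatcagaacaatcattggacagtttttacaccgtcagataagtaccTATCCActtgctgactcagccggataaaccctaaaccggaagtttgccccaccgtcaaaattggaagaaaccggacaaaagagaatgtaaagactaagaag

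Within the window, ASN1 had CACGTG from position -167 to -162 and TATCCA from -101 to -96, counted back from the annotated start. TPS11 had TATCCA from -141 to -136. BZIP1 had TATCCA on the other strand from -84 to -79. The other 7 genes, DIN10 and TPS8 among them, held none of the 3 motifs in this window. Of the 27443 protein-coding genes with a window of this length, 6.49% held CACGTG, 12.3% ACTCAT and 13.6% TATCCA. A match describes the letters only and is neither a bound site nor a cause of a level. The 3 genes that were higher at HT thus shared none of these motifs.

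Both genes of the catalytic subunit of SnRK1 had fewer normalized reads at HT, and KIN11 passed both thresholds. KIN11 (chr3:11128620-11132105, minus strand, TAIR10.1 as for all positions here) had 1168, 1369, 1396 and 1363 normalized reads in the 4 HT libraries, against 2137, 2052, 2085 and 2103 in the 4 control libraries. Every HT library lay below every control library, and HT replicate 1 was the lowest. KIN11 averaged 1324 ± 105 at HT and 2094 ± 35.2 in the control (SD, n = 4 each), which is -0.66 on the log2 scale (SE 0.0522, 95% interval -0.78 to -0.55, limma adjusted p = 1.5e-08). With equal totals KIN11 had a log2 fold change of -0.46 and was no longer past the fold threshold. That rescaling moved the median of all genes to 0.21, and relative to the median KIN11 stood at -0.67 with it and at -0.68 without.

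KIN10 (chr3:31145-34670, minus strand), which is thought to carry most of the SnRK1 activity, had 2095, 1989, 2249 and 2138 normalized reads at HT, against 3191, 3129, 2939 and 2874 in the control. These groups did not overlap either. KIN10 averaged 2118 ± 107 at HT and 3034 ± 151 in the control (SD, n = 4 each), and its log2 fold change of -0.52 (SE 0.0454, 95% interval -0.62 to -0.42, limma adjusted p = 5.3e-08) stayed under the fold threshold. KIN10 overlaps AT3G01100 on the same strand, and reads in the shared stretch could belong to either gene. KIN10 and KIN11 share no exonic stretch of 50 bases.

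Per transcript length, KIN10 and KIN11 together amounted to 38.0 ± 1.87 FPKM at HT and 56.8 ± 1.68 FPKM in the control (SD, n = 4 each). The log2 difference of this sum was -0.58 (exact two-sided permutation p = 0.029, the smallest that 70 arrangements can give; 0.043 after Benjamini-Hochberg adjustment over 3 family sums). With equal totals the difference of the sum was -0.38. The FPKM ratio of KIN10 to KIN11 was 1.56, 1.26, 1.40 and 1.36 in the HT libraries, against 1.30, 1.33, 1.23 and 1.19 in the control libraries. The groups overlapped, and the log2 difference of 0.15 did not pass (exact permutation p = 0.086, 0.11 after adjustment over the 2 ratios that could be computed).

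The other subunits and the kinases that activate SnRK1 gave 1 gene lower and 0 higher of 7 tested, with a median log2 fold change of -0.22. Of all tested genes, 20.0% were higher and 17.5% were lower. The gene lower at HT was AKINBETA2, a scaffold subunit, with 1951 ± 64.8 normalized reads at HT and 3429 ± 49.4 in the control (SD, n = 4 each, log2 fold change -0.81, limma adjusted p = 1.7e-11). SNF4 (log2 fold change -0.57), GRIK2 (-0.48) and GRIK1 (-0.22) were negative without overlap of the groups but under the fold threshold. KING1 (0.33) was positive in the same way. SNF4, GRIK1, GRIK2 and KING1 were named after their values were seen. KIN12, a further catalytic gene, was not in the normalized table.

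**Figure D1:**
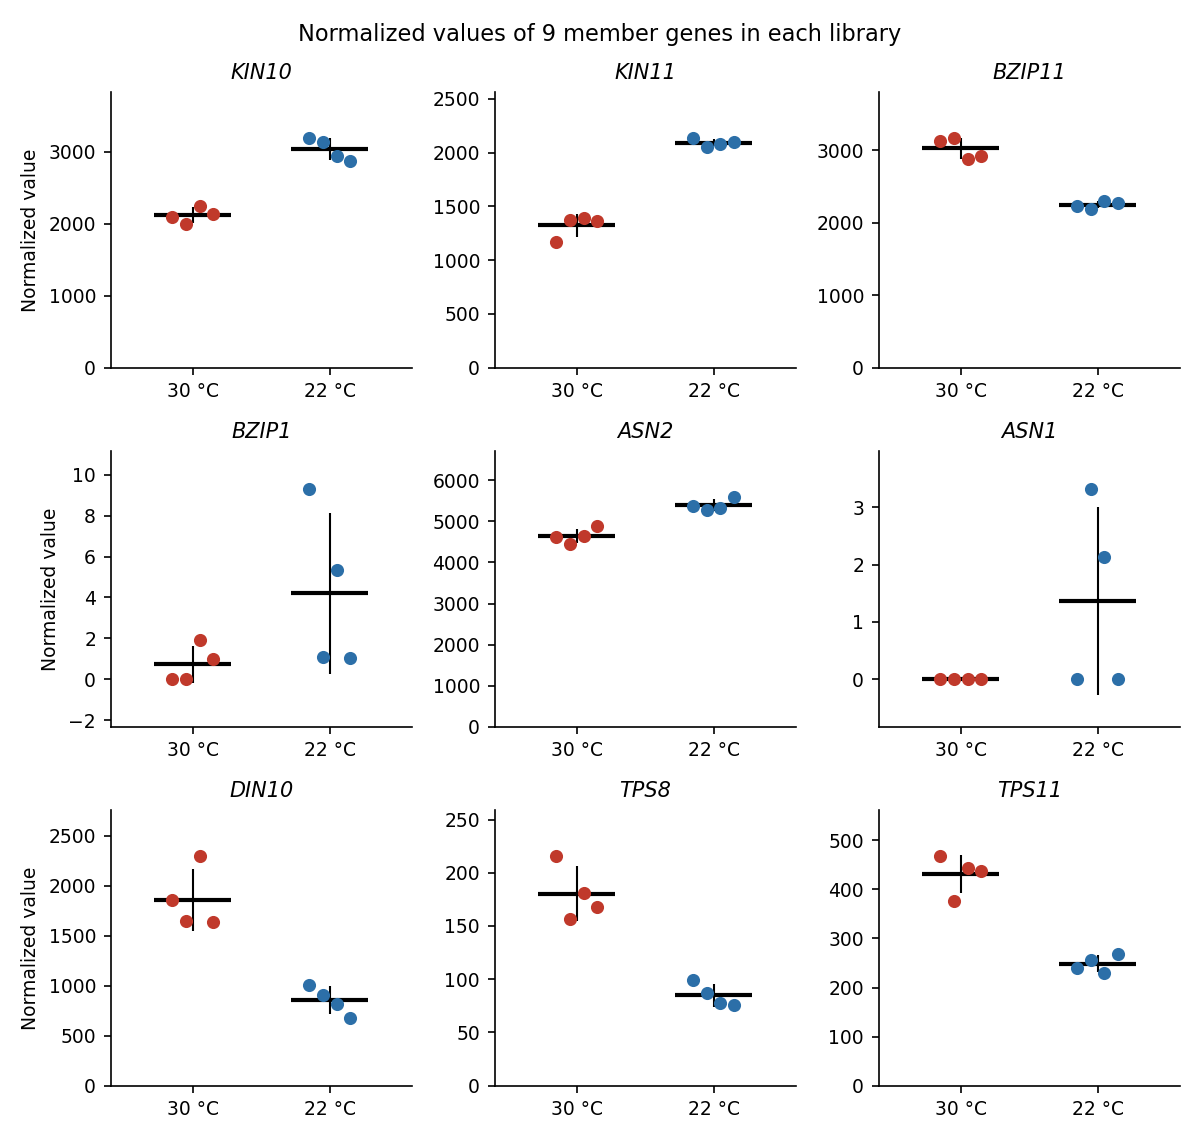
Normalized values (reads divided by the size factor of the library, y axis from 0 except for BZIP1 and ASN1, where room is left for the error bars) of the 9 genes of the normalized table at 30 °C (red, left) and 22 °C (blue, right). Each point is 1 library, the horizontal line is the mean and the vertical line the SD of 4 libraries. DIN10, TPS8 and TPS11 sit higher at 30 °C, KIN11 sits lower, and BZIP1 and ASN1 lie under 10 in every library.

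The bZIP factors next to SnRK1 fell into an abundant gene and one at the limit of detection. BZIP11 (chr4:16521861-16523230, plus strand), whose translation sucrose represses through an upstream open reading frame, had 3135, 3172, 2875 and 2925 normalized reads at HT, against 2231, 2187, 2303 and 2275 in the control. Every HT library exceeded every control library. The means were 3027 ± 148 at HT and 2249 ± 50.8 in the control (SD, n = 4 each), and the log2 fold change of 0.43 (SE 0.0400, 95% interval 0.34 to 0.51, limma adjusted p = 1.1e-07) was under the fold threshold. With equal totals BZIP11 came to 0.63, past that threshold, and to 0.42 relative to the median of all genes. The upstream reading frame annotated for BZIP11 is 129 bases long and lies at chr4:16522098-16522226 of TAIR10.1, and RNA levels carry no information on its use. Upstream reading frames are also annotated for BZIP1, BZIP2, BZIP44 and BZIP53, so the feature is not particular to BZIP11.

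BZIP1 (chr5:20051829-20052735, plus strand), a factor induced by darkness and starvation in leaves, was covered by 3 reads over the 4 HT libraries and by 16 over the 4 control libraries. By library the normalized values were 0, 0, 1.91 and 0.968 at HT, against 9.30, 1.11, 5.33 and 1.05 in the control. The groups overlapped, and the higher control mean came from control replicates 1 and 3. The log2 fold change of -1.83 (95% interval -3.62 to -0.04) had a limma adjusted p of 0.063 and did not pass, with an exact two-sided permutation p of 0.11. From the reads alone, the ratio of HT to control was 0.165 with an exact counting interval of 0.0308 to 0.576, which covers counting error only. The call for BZIP1 depended on the processing: it passed as lower in edgeR on the reads (-2.38, adjusted p = 0.0495) and not in DESeq2 (-2.57, adjusted p = 0.0707). Without HT replicate 3, control replicate 2 or control replicate 4 it passed in limma, at -2.27, -2.20 and -2.22.

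Within the S1 group, made up of BZIP1, BZIP2, BZIP11, BZIP44 and BZIP53, the share of BZIP11 in the summed FPKM was 16.9% ± 0.664 at HT and 10.1% ± 0.138 in the control (SD, n = 4 each). BZIP2 held the largest share, 47.1% ± 1.18 at HT and 61.5% ± 0.535 in the control. BZIP53 made up 23.1% at HT and 18.1% in the control, and BZIP44 12.9% at HT and 10.2% in the control. In level, BZIP53 (log2 fold change 0.04, limma adjusted p = 0.33) and BZIP44 (0.03, limma adjusted p = 0.67) did not pass. Each share, that of BZIP11 included, also depends on the level of BZIP2. BZIP1 made up 0.00614% at HT and 0.0286% in the control. The summed FPKM of the group was 331 ± 7.65 at HT and 410 ± 10.6 in the control (log2 difference -0.31, exact permutation p = 0.029, 0.043 after adjustment over 3 family sums), and -0.11 with equal totals. Of the 7 other S1 and C group factors tested, 0 were higher and 1 was lower, against 20.0% and 17.5% of all tested genes. Their median log2 fold change was 0.04. BZIP9 (0.55), BZIP10 (0.46) and BZIP63 (0.48) were higher by the adjusted p alone, like BZIP11. The groups of BZIP63 overlapped and those of BZIP9 and BZIP10 did not. BZIP9, BZIP10 and BZIP63 were named after their values were seen. BZIP2 was the lower gene, with 7574 ± 216 normalized reads at HT and 12277 ± 365 in the control (log2 fold change -0.70, limma adjusted p = 4.3e-11). BZIP2 was under the fold threshold with equal totals (-0.49) and after quantile normalization (-0.41). Relative to the median of all genes it stood at -0.71 both with the deposited size factors and with equal totals. After quantile normalization it stood at -0.39.

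**Figure D2:**
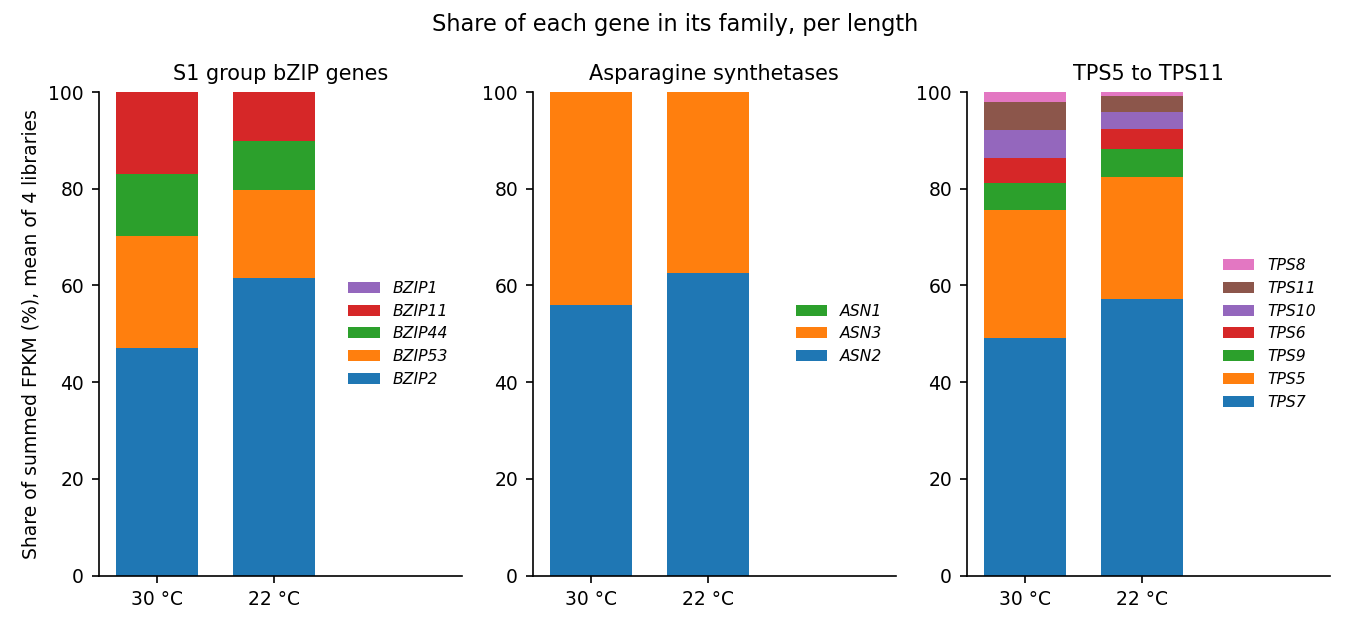
Share of each gene in the summed FPKM of its family (y axis, percent, mean of 4 libraries) at 30 °C (left bar) and 22 °C (right bar) for the S1 group bZIP genes, the asparagine synthetases and TPS5 to TPS11. BZIP11 takes 16.9% at 30 °C and 10.1% at 22 °C, ASN2 takes 56.0% at 30 °C and 62.5% at 22 °C, and BZIP1 and ASN1 are too small to be seen.

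Among the asparagine synthetases, which make asparagine as a carbon-saving store of nitrogen, ASN2 and ASN3 carried the transcripts and ASN1 did not. ASN2 (chr5:25969035-25972575, plus strand) had 4628, 4456, 4634 and 4882 normalized reads at HT, against 5387, 5284, 5334 and 5597 in the control, and the groups did not overlap. The log2 fold change of -0.22 (SE 0.0351, 95% interval -0.29 to -0.14, limma adjusted p = 4.8e-05) was under the fold threshold. ASN2 came to -0.01 (limma adjusted p = 0.74) with equal totals and to -0.05 (limma adjusted p = 0.17) after quantile normalization. Relative to the median of all genes it stood at -0.23 both with the deposited size factors and with equal totals, and at -0.03 after quantile normalization.

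ASN1 (chr3:17437840-17441431, minus strand), the dark-inducible gene DIN6 and the classical readout of SnRK1 activity in leaves, had 0 reads in each of the 4 HT libraries. In the control it had 0, 3.32, 2.13 and 0 normalized reads, which are 5 reads in all. The groups overlapped, with an exact two-sided permutation p of 0.43, and limma with no filter on low values gave an adjusted p of 0.15. From the reads alone, the exact counting interval of the ratio of HT to control was 0 to 0.959, which covers counting error only and not the spread between libraries. The 0 of 35117 reads assigned to ASN1, ASN2 and ASN3 at HT allows a share of up to 0.00854%. This limit takes 3 reads as the upper 95% bound of a count of 0. In the control ASN1 had 5 of 32172 reads, a share of 0.0155%. These shares pool the 4 libraries of each group and hold no spread between them, so no difference is read from them. ASN1 overlaps the antisense gene AT3G47341. The methods describe directional libraries, made with dUTP in the second strand, but whether the counting used strand is not given in the sources used here. ASN2 made up 56.0% ± 1.03 of the summed FPKM of the family at HT and 62.5% ± 0.149 in the control (SD, n = 4 each), and ASN3 the remainder, 44.0% at HT and 37.5% in the control.

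DIN1 (chr4:16944878-16946266, plus strand), a senescence-associated gene also called SEN1, was listed at 0 FPKM in all 4 HT libraries and in 3 of the 4 control libraries. Control replicate 2 had 0.0216 FPKM, which for a gene of 1297 exonic bases is worth 1 read. DIN1 thus had at most 1 read in any library. DIN1 and ASN1 both lacked reads at HT, whereas DIN10 did not.

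DIN10 (chr5:6833564-6836862, plus strand), a raffinose synthase family gene induced in darkened leaves, had 1859, 1650, 2299 and 1635 normalized reads at HT, against 1009, 912, 821 and 678 in the control. All HT libraries lay above all control libraries, with HT replicate 3 the highest. DIN10 averaged 1861 ± 310 at HT and 855 ± 141 in the control (SD, n = 4 each), a 2.18-fold increase (log2 fold change 1.12, SE 0.113, 95% interval 0.88 to 1.36, limma adjusted p = 2.8e-07). The spread between replicates was 16.6% of the mean at HT and 16.4% in the control, while counting alone would give 2.24% and 3.52%. DIN10 overlaps AT5G20260 on the other strand, and the same limit on strand holds for it.

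The class II genes TPS8 and TPS11 rose together with it. TPS8 (chr1:26470795-26474833, minus strand) had 215.8, 156.1, 181.1 and 167.5 normalized reads at HT, against 99.2, 87.4, 77.8 and 75.4 in the control. The lowest HT library was above the highest control library. The means of 180 ± 25.9 at HT and 84.9 ± 10.9 in the control (SD, n = 4 each) gave a log2 fold change of 1.08 (SE 0.145, 95% interval 0.77 to 1.39, limma adjusted p = 6.7e-06).

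TPS11 (chr2:8108898-8112010, plus strand) had 468, 377, 443 and 437 normalized reads at HT, against 239, 255, 230 and 269 in the control. It averaged 431 ± 38.5 at HT and 248 ± 17.3 in the control (SD, n = 4 each), a 1.74-fold increase (log2 fold change 0.79, SE 0.0882, 95% interval 0.60 to 0.98, limma adjusted p = 8.2e-07). The groups did not overlap. The FPKM ratio of TPS8 to TPS11 was 0.366 at HT and 0.300 in the control, geometric means of 4 libraries each, and this difference did not pass (log2 difference 0.29, exact permutation p = 0.11, 0.11 after adjustment over 2 ratios).

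Both genes were minor members of their family. Of the summed FPKM of TPS5 to TPS11, TPS8 made up 2.12% ± 0.332 at HT and 0.931% ± 0.104 in the control, and TPS11 5.76% ± 0.511 at HT and 3.11% ± 0.296 in the control (SD, n = 4 each). TPS7, the most abundant, made up 49.1% ± 0.856 at HT and 57.2% ± 0.182 in the control. The sum itself was 64.4 ± 2.14 FPKM at HT and 68.9 ± 1.80 FPKM in the control and did not pass (log2 difference -0.10, exact permutation p = 0.057). With equal totals, which raise the median of all genes to 0.21, the log2 difference of the sum was 0.11 (exact permutation p = 0.029), so no direction is given for it.

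**Figure D3:**
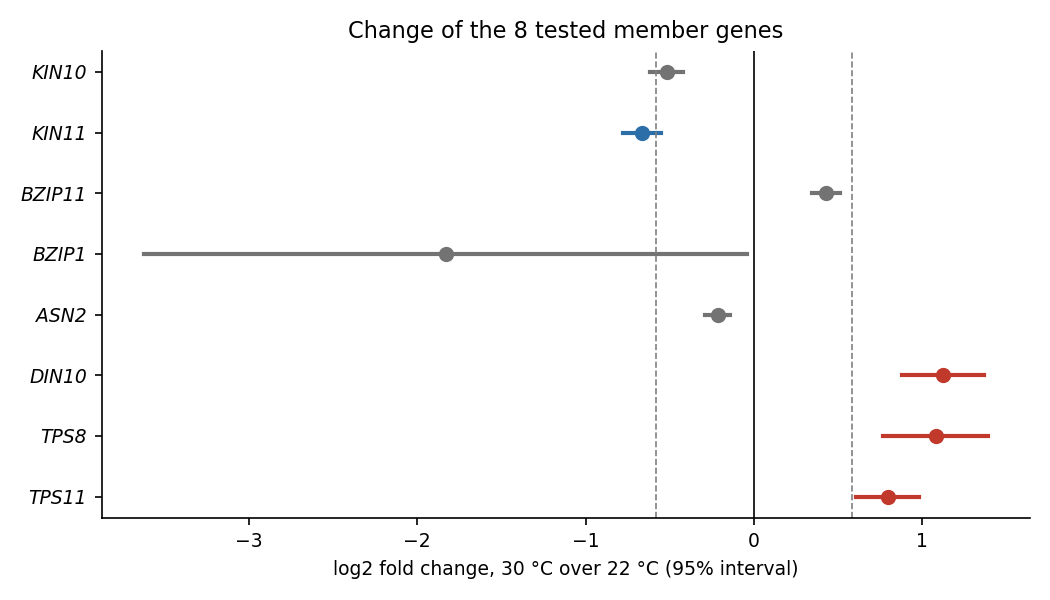
Log2 fold change at 30 °C over 22 °C (x axis) of the 8 tested genes, with the 95% interval from limma as a bar and the fold threshold of 0.58 in either direction as dashed lines. Red marks genes that were higher, blue the gene that was lower and grey genes that did not pass both thresholds. DIN10 (1.12), TPS8 (1.08) and TPS11 (0.79) lie to the right, KIN11 (-0.66) to the left, and the interval of BZIP1 reaches from -3.62 to -0.04.

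Set side by side per transcript length, the order of the levels differed at the top between the temperatures. At HT, BZIP11 (55.95 ± 2.74 FPKM) and ASN2 (52.9 ± 1.99 FPKM) led and overlapped. In the control, ASN2 (61.4 ± 1.57 FPKM) stood above BZIP11 (41.6 ± 0.939 FPKM) without overlap. KIN10 followed with 22.1 ± 1.12 FPKM at HT and 31.7 ± 1.57 FPKM in the control. KIN11 (15.9 ± 1.26 FPKM) and DIN10 (15.1 ± 2.51 FPKM) overlapped at HT, while in the control KIN11 (25.1 ± 0.422 FPKM) was well above DIN10 (6.94 ± 1.14 FPKM). TPS11 and TPS8 came next in both groups, with 3.71 and 1.36 FPKM at HT and 2.14 and 0.642 FPKM in the control. BZIP1, ASN1 and DIN1 closed the order in both groups, and their ranges overlapped.

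Other genes listed as induced by starvation or darkness, ASN3 among them, were counted together. Of 12 tested, 6 were higher and 1 was lower, against 20.0% higher and 17.5% lower of all tested genes. The median log2 fold change was 0.73, against 0.01 over all tested genes. DIN2, a beta-glucosidase gene, had 55.4, 77.2, 115 and 134 normalized reads at HT, against 6.20, 4.42, 4.26 and 3.14 in the control (log2 fold change 4.21, limma adjusted p = 1.7e-08). EXL2, an EXORDIUM-like gene, averaged 9969 ± 1715 at HT and 640 ± 77.3 in the control (SD, n = 4 each, log2 fold change 3.95, limma adjusted p = 4.9e-14). The dormancy-associated gene DRM2 had only 32 reads at HT and 12 in the control in all, its groups overlapped, and its log2 fold change of 1.15 had a limma adjusted p of 0.0455. STP1, a hexose transporter gene, was lower, with 1689 ± 218 at HT and 3041 ± 154 in the control (SD, n = 4 each, log2 fold change -0.86, limma adjusted p = 2.7e-08). The number higher was 3 after quantile normalization, 5 in edgeR and in DESeq2, and 4 to 6 when 1 library was left out.

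Branched-chain amino acids serve as an alternative fuel when sugar runs out. Of 7 tested genes listed for their breakdown, DIN3 and DIN4 among them, 0 were higher and 0 were lower. Of all tested genes, 20.0% were higher and 17.5% were lower. The log2 fold changes of the 7 genes lay between -0.14 and 0.22. With the adjusted p alone, 1 was higher (D2HGDH, 0.22) and 1 was lower (MCCB, -0.14), against 35.9% and 35.2% of all tested genes. DIN3 had 931 ± 67.6 normalized reads at HT and 924 ± 34.7 in the control, and DIN4 935 ± 38.6 at HT and 848 ± 97.5 in the control (SD, n = 4 each). DIN3, DIN4, D2HGDH and MCCB were named after their values were seen.

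Other enzymes of the trehalose pathway were counted next. Of 7 other synthase and trehalase genes tested, 0 were higher and 2 were lower, against 20.0% and 17.5% of all tested genes. The median log2 fold change of the list was -0.16. The class II genes TPS10 (0.56, limma adjusted p = 5.0e-05) and TPS6 (0.26) were positive without overlap but under the fold threshold. TPS7 (-0.32) was negative in the same way. TPS6, TPS7 and TPS10 were named after their values were seen. TPS1, which makes trehalose 6-phosphate, had 816 ± 26.9 normalized reads at HT and 1542 ± 70.9 in the control (SD, n = 4 each, log2 fold change -0.92, limma adjusted p = 1.2e-10). TRE1, the trehalase that cleaves trehalose, had 70.8 ± 10.6 at HT and 149 ± 17.8 in the control (log2 fold change -1.08, limma adjusted p = 1.6e-05).

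Of the 10 phosphatase genes, which remove the phosphate from trehalose 6-phosphate, 7 were tested, 1 was higher and 3 were lower (median log2 fold change -0.33). Of all tested genes, 20.0% were higher and 17.5% were lower. TPPB had 1.88, 0, 1.91 and 2.90 normalized reads at HT, against 103, 99.5, 118 and 69.1 in the control (log2 fold change -5.77, limma adjusted p = 6.2e-08). TPPJ had 11 reads at HT and 112 in the control (-3.85, adjusted p = 7.5e-05 in limma), and TPPF 6 at HT and 34 in the control (-2.68, adjusted p = 0.00754 in limma), with overlapping groups for TPPF. TPPA was higher, with 2071 ± 67.2 normalized reads at HT and 1256 ± 89.1 in the control (SD, n = 4 each, log2 fold change 0.72).

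Of 7 tested genes of sucrose cleavage and hexose phosphorylation, 2 were higher and 2 were lower, against 20.0% and 17.5% of all tested genes. The sucrose synthase genes SUS1 and SUS4 were higher. SUS1 had 520 ± 73.3 normalized reads at HT and 184 ± 30.1 in the control (SD, n = 4 each, log2 fold change 1.50, limma adjusted p = 1.9e-08), and SUS4 29.9 ± 10.1 at HT and 10.1 ± 4.25 in the control (1.56, limma adjusted p = 0.00284). The vacuolar invertase gene VI2 was lower, with 6631 ± 320 at HT and 11401 ± 424 in the control (log2 fold change -0.78). HXK1, the hexokinase that also senses glucose, was lower too, with 4123 ± 73.0 at HT and 7076 ± 87.3 in the control (log2 fold change -0.78). With equal totals VI2 (-0.579) and HXK1 (-0.576) were just under the fold threshold, and VI2 also after quantile normalization (-0.51). Relative to the median of all genes, VI2 stood at -0.795 with the deposited size factors and at -0.792 with equal totals. HXK1 stood at -0.792 and -0.789.

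TOR is the growth-promoting kinase that acts opposite to SnRK1. Of the 5 tested genes of its complex and its S6 kinases, 0 were higher and 1 was lower, with a median log2 fold change of 0.24. Of all tested genes, 20.0% were higher and 17.5% were lower. S6K1, a substrate kinase of TOR, had 2727 ± 93.7 normalized reads at HT and 6013 ± 324 in the control (SD, n = 4 each, log2 fold change -1.14, limma adjusted p = 2.4e-12). TOR (0.27), LST8-1 (0.24) and S6K2 (0.29) had positive log2 fold changes under the fold threshold, with groups that did not overlap. RAPTOR1 was at -0.10, also without overlap. TOR, LST8-1, S6K2 and RAPTOR1 were named after their values were seen.

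**Figure D4:**
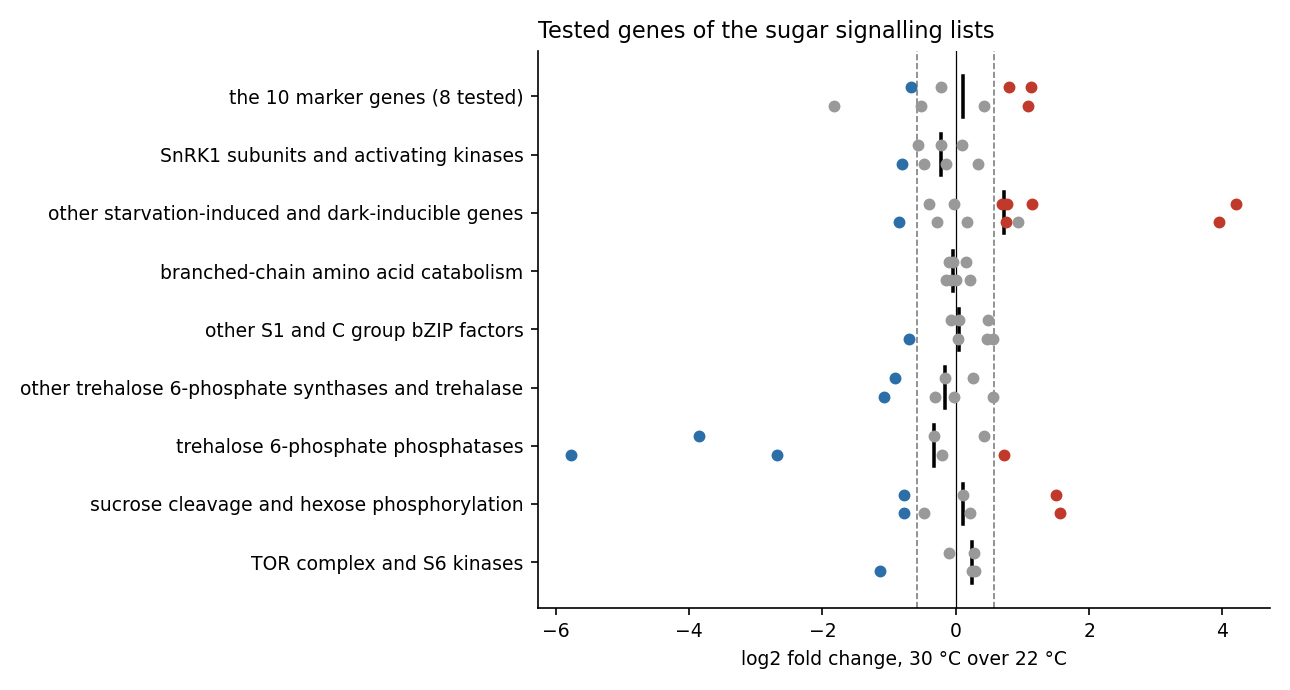
Log2 fold change at 30 °C over 22 °C (x axis) of every tested gene of the 10 markers and of 8 lists of the pathway around them, 1 point per gene, with the list median as a short black bar and the fold threshold of 0.58 as dashed lines. Red points were higher, blue points lower and grey points passed neither direction. The starvation-induced and dark-inducible genes have the highest median (0.73), with DIN2 and EXL2 far to the right, and the branched-chain genes lie between -0.14 and 0.22.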

How the data were processed

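RNA-seq libraries of root tips, 4 at HT and 4 controls, were analysed. Per the submitters' processing notes the authors used HISAT2, DESeq2 and TAIR10, with no versions given. The authors deposited normalized signal values, which are read counts divided by DESeq2 size factors, and FPKM values. Once divided by the worth of 1 read, 100% of the normalized values came out whole, within 0.01 of a read. The deposited files hold no fold changes or p-values and 0 sample columns were left unused.

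The temperatures were compared with limma 3.58.1 (R 4.3.3). The fit used log2(normalized value + 0.5), an intensity trend, no covariates, and the genes whose mean reached 1. Benjamini-Hochberg adjustment ran over all of them. A call needed an adjusted p under 0.05 together with a log2 change of 0.58 or more in either direction. On this scale the change of genes with few reads is understated. The alternatives were other pseudocounts, filters and scalings, the FPKM table with its own pseudocount of 0.1, edgeR 4.0.16 with TMM factors and DESeq2 1.42.0 on the recovered reads, a replicate block, no fold threshold, and leaving out each library. Single values were put to exact two-sided permutation tests over 70 arrangements. Of the 4 planned ratios, 2 were not computed because a member was at 0. The p-values measure the spread between pools of seedlings.

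The 10 genes and the lists were chosen with earlier results of these data known. Named are the 10 genes and, in each list, up to 4 past both thresholds with the largest change. In some lists, genes under a threshold were also named after their values were seen. Of the list entries, 4 were dropped (SEN5, PRODH2, BCKDH-E1A1 and VI1) because name and identifier did not match the reference. Names, positions and sequence are from RefSeq's TAIR10.1. Counting intervals cover counting error only. The mean minimum kept ASN1 out of the test.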

Additional observations from a re-analysis of the deposited data

Results flagged for a closer look

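1 value stood apart from the other libraries of its group. KIN11 had 1168 normalized reads in HT replicate 1, and the gap to the next HT library was 0.855 of the range of the group, above Dixon's 95% critical value for 4 samples. 21 groups of 4 libraries were examined in this way, and chance alone flags about 1 in 20. Without HT replicate 1 the log2 fold change of KIN11 was -0.61 and remained past both thresholds.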

How the results depend on the processing

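DIN10, TPS8 and TPS11 were higher and KIN10 and ASN2 negative in sign under every alternative run. KIN11 was lower under all but equal totals (-0.46, under the fold threshold). Under equal totals BZIP11 passed as higher (0.63). The number of the 8 genes called lower was 1, and it was 0 with equal totals, 3 with no fold threshold and 2 with no filter, with quantile normalization and in edgeR. BZIP1 passed with no filter (-1.83, adjusted p = 0.0448), after quantile normalization (-2.004) and in edgeR (-2.38), and its adjusted p ranged from 0.0345 to 0.209 over all alternatives. Without a fold threshold 7798 genes were higher and 7657 lower. The causes were not tested.

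Leaving out 1 library in turn gave log2 fold changes of 1.02 to 1.21 for DIN10, 0.99 to 1.16 for TPS8, 0.75 to 0.86 for TPS11, 0.40 to 0.45 for BZIP11, -0.55 to -0.49 for KIN10, -0.69 to -0.61 for KIN11, -0.24 to -0.20 for ASN2 and -2.27 to -1.33 for BZIP1. The genes called lower then numbered 1 or 2 of 8. The log2 difference of the KIN10 to KIN11 ratio was 0.0921 to 0.1934, and it passed an unadjusted exact permutation test (p = 0.029) without HT replicate 2. That of TPS8 to TPS11 was 0.1941 to 0.3837, and it passed (exact permutation p = 0.029) without control replicate 1.

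Same-numbered libraries of the 2 groups had residual correlations of 0.0031 to 0.0771, against -0.0862 to 0.0463 for differently numbered ones. The value of 0.0771, for replicate 3, lay above that range. Correlations this weak cannot settle whether the numbers pair the samples, and the main fit did not pair them. With a replicate block 4300 genes were higher and 3762 lower, and no call of the 8 genes changed. Of the list counts, equal totals gave 3 higher and 0 lower S1 and C group factors (0 and 1 in the report), 2 higher phosphatases (1), 1 higher synthase (0) and 0 lower genes of sucrose cleavage (2). Quantile normalization gave 3 higher starvation genes (6), 1 higher and 0 lower S1 and C group factors and 1 lower gene of sucrose cleavage. With no fold threshold, the SnRK1 subunits and kinases had 1 higher and 4 lower, and the TOR list 3 higher and 2 lower. The sucrose cleavage list had 4 higher, the starvation genes 3 lower, the S1 and C group factors 3 higher and the synthases 2 higher. Of all tested genes, 35.9% were higher and 35.2% were lower at this setting. Leaving out 1 library gave up to 2 lower SnRK1 genes and up to 1 higher synthase or S1 and C group factor. List counts given as 0 stayed at 0 with an unadjusted p in limma, in edgeR and in DESeq2 when the fold threshold was kept. The filter at a mean of 10 removed BZIP1 from the test. Depth limits BZIP1, ASN1 and DIN1.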
